A study of Mus musculus with 8 samples.

Results

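The immediate early genes *Fos*, *Fosb*, *Jun*, *Junb*, *Egr1*, *Egr2*, *Nr4a1*, *Npas4*, *Ier2* and *Arc* were described in 8 mouse fetal brains, as 10 of the 54752 genes in the count tables. They were chosen by name as widely used markers of acute cell activation. Libraries came from poly(A) RNA of single brains of wild type C57BL/6 embryos (C57BL/6Slac in the study's methods) at E15.5, with 4 control brains (F36, F37, M30, M31) and 4 stress brains (F34, F35, M28, M29), where F marks a female and M a male. The dams of the stress brains went through chronic unpredictable mild stress (CUMS), a schedule of changing mild stressors, between E5.5 and E14.5, and the control dams did not. All control brains belonged to 1 litter and all stress brains to 1 other litter, so an effect of CUMS and a difference between these litters cannot be told apart, and every error given below is the spread among littermates. The study's animal list gives the tissue of these animals as half_whole_brain. Neuronal, radial glial and cycling cell markers were detected in every library.

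Immediate early genes are switched on within minutes of a stimulus, without new protein synthesis, when calcium and growth factor signals reach transcription factors that already sit in the nucleus. CREB, bound to cAMP response elements (CRE), and SRF with its ETS partners, bound to CArG boxes, are the best known of these factors. The transcripts are short-lived, so in the brain their level is widely read as a trace of recent neuronal activity. *Fos*, *Fosb*, *Jun* and *Junb* encode subunits of the dimeric transcription factor AP-1, *Egr1* and *Egr2* zinc finger factors, *Nr4a1* an orphan nuclear receptor, *Npas4* a bHLH-PAS factor of depolarised neurons, *Ier2* a small nuclear regulator and *Arc* a cytoskeletal protein of synapses.

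The bases just upstream of the start site are shown for 5 of these genes, because the factors above act through elements in such regions and because *Junb* was the gene called between the groups. RefSeq windows of 250 bases (GRCm38.p6) were searched for 7 of the 10 genes: *Fos*, *Fosb*, *Jun*, *Junb*, *Egr2*, *Nr4a1* and *Npas4*. No window was found for *Arc* or *Ier2*. The chromosome that holds *Egr1* was left out of the search, so the absence of *Egr1* does not mean that it lacks a window. The numbers and shares of all genes and all windows given below leave out that chromosome too. Capitals mark each CRE core (TGACG on either strand) and each CArG box.
Fos, chr12:85473640-85473889, plus strand: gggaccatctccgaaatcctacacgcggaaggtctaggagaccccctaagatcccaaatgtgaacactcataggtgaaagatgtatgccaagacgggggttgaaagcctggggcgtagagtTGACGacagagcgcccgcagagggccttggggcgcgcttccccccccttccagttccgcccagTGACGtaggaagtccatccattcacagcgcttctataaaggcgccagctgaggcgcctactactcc
Junb, chr8:84978749-84978998, minus strand: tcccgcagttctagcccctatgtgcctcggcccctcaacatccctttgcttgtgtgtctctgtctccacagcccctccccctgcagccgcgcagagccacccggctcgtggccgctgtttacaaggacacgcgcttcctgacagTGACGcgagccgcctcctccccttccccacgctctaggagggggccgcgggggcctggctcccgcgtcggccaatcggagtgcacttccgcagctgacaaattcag
Egr2, chr10:67537619-67537868, plus strand: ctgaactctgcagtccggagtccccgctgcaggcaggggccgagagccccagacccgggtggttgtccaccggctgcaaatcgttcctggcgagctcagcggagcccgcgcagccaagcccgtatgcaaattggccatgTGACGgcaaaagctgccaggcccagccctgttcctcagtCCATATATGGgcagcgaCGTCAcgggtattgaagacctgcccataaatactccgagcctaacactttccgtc
Nr4a1, chr15:101266596-101266845, plus strand: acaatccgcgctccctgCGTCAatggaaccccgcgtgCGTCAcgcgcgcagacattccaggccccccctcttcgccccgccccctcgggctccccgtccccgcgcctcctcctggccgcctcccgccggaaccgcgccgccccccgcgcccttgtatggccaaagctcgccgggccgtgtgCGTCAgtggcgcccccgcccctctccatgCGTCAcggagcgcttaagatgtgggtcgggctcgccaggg
Npas4, chr19:4989972-4990221, minus strand: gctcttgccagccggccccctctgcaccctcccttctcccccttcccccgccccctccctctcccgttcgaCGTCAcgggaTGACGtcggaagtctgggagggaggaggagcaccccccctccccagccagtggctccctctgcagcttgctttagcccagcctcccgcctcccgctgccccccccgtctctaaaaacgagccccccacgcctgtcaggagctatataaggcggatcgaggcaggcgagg
A CRE core was present in a window of 6 of the 7 genes, with *Jun* the exception, beside 19.79% of all 27025 genes with such windows and 17.77% of all 32851 windows. G and C made up between 54.0% and 74.4% of the bases in the windows of these 7 genes, and TGACG itself holds a CG pair. Windows of like GC content were not compared, so these shares do not measure an enrichment. *Egr2* has 5 windows, of which 3 held a CRE core, 4 a CArG box and 1 neither, and the window shown is one that holds both. The 3 windows with a CRE core overlap one another and share the same 2 cores and the same CArG box. The other window with a CArG box held a different one. The remaining 6 genes have 1 window each. *Nr4a1* held 4 CRE cores, all read on the opposite strand and the nearest to the start site at -40 to -36. *Npas4* held 2 on opposite strands, at -179 to -175 and -169 to -165, and *Junb* held 1, at -106 to -102. The full palindrome TGACGTCA, which contains the CRE core, was in none of the windows of the 7 genes and in 1.55% of all windows. Within these 250 bases the CArG box was found for *Egr2* alone of the 7 genes searched, at -72 to -63 of the window shown, beside 1.47% of all windows. Bases further upstream were not searched, so a more distant CArG box or CRE of any of these genes would not be seen. The letters of the AP-1 element (TGANTCA) were in no window of the 7 genes and in 6.75% of all. A TATAAA box was found for *Fos*, at -33 to -28, and in 12.37% of all windows. These matches describe the letters and do not show that a factor was bound.

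Most of the immediate early genes were below the median gene in the E15.5 brain per length, while *Jun* and *Ier2* were above it. The 10 genes together received between 2132 and 2373 counts per brain, out of library totals between 25320109 and 29105710, and *Jun* alone made up between 54.4% and 60.9% of them. Levels were compared between genes as RPKM, which divides by exon length and by the TMM-scaled library size. *Jun* (chromosome 4, 95049034 to 95052222, 1 exon) stood first with a mean of 14.8 RPKM over the 8 brains, higher than 79.2% of the 17865 genes that passed the filter on low counts. *Ier2* (chromosome 8, 84661331 to 84662852) followed at 5.42 RPKM, higher than 55.6% of those genes. *Npas4* (chromosome 19, 4984355 to 4989971) had 2.76 RPKM and *Nr4a1* (chromosome 15, 101254269 to 101274795) 2.22 RPKM, higher than 41.5% and 37.7% of them. The next were *Junb* (chromosome 8, 84974484 to 84978718) at 1.30 RPKM, *Arc* (chromosome 15, 74669083 to 74672570) at 1.06 RPKM and *Egr1* (chromosome 18, 34859823 to 34864984) at 0.641 RPKM.

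*Fos*, *Egr2* and *Fosb* were the lowest of the 10. *Fos* (chromosome 12, 85473890 to 85477273) had a mean of 0.335 RPKM, higher than 11.1% of the genes that passed the filter. *Egr2* (chromosome 10, 67535475 to 67542188) had 0.139 RPKM, higher than 2.8% of them. *Fosb* (chromosome 7, 19302696 to 19310051) had 0.0272 RPKM and did not pass the filter, and *Jun* was 544 times as high. Ranges over the 8 brains overlapped between the neighbours *Npas4* and *Nr4a1*, between *Junb* and *Arc*, and between *Egr2* and *Fosb*, and were apart for every other pair of neighbours in this order. By CPM, without length, *Npas4* passed *Ier2* and *Arc* passed *Junb*, and the other 6 genes kept their place. Coordinates are those of the mm10 count tables.

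**Figure D1:**
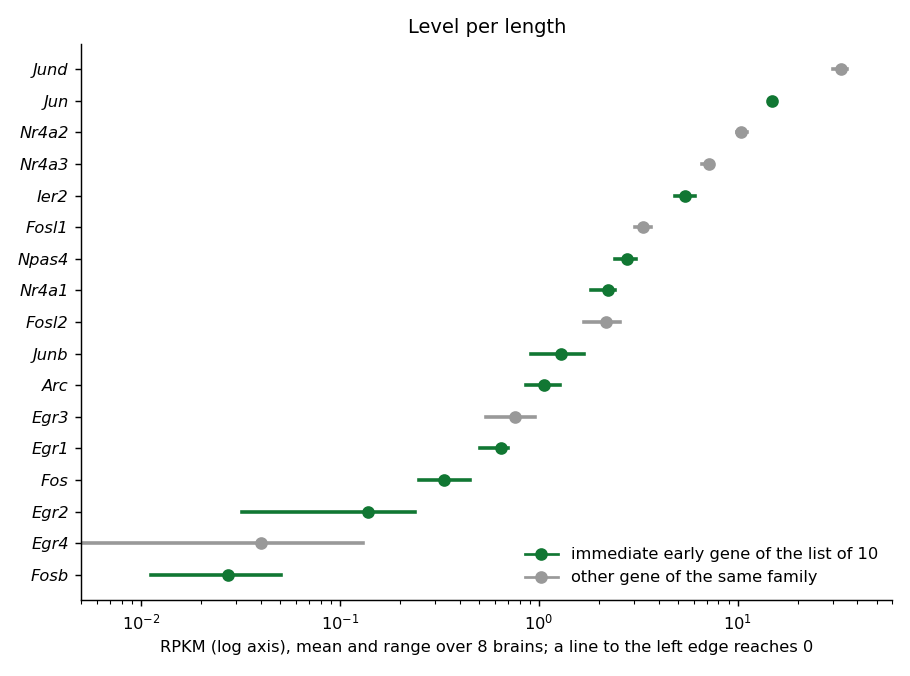
Level per length of the 10 immediate early genes (green) and the other genes of the Fos, Jun, Egr and Nr4a families (grey), as RPKM on a log axis. Points are means over 8 brains and lines run from the lowest to the highest brain. Jun leads the 10 at 14.8 RPKM and Fosb is last at 0.0272 RPKM, and Egr4, with 0 counts in 1 brain, reaches the left edge.

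The Fos and Nr4a families each had a member with more transcripts per length than the immediate early genes of the list. Of the summed RPKM of *Fos*, *Fosb*, *Fosl1* and *Fosl2*, which all encode partners of the Jun proteins, *Fos* made up 5.87% ± 1.12 in the control brains and 5.55% ± 1.21 in the stress brains (SD, n = 4 each). *Fosl1* made up 53.5% ± 1.07 and 60.3% ± 4.06, and *Fosl2* 40.3% ± 1.92 and 33.5% ± 3.22. *Jund* exceeded *Jun*, with 33.0 RPKM over the 8 brains, although exons of another gene cover 52.6% of its exon bases and its count is uncertain for that reason. *Junb* made up 3.0% ± 0.224 of the Jun family in the control brains and 2.29% ± 0.361 in the stress brains. Among the Egr genes *Egr3*, at 0.757 RPKM, and *Egr1* had ranges that overlapped. *Nr4a2*, a factor of dopaminergic neurons, and *Nr4a3* reached 10.4 and 7.17 RPKM, both above *Nr4a1* in every brain.

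The question of the comparison between groups was whether prenatal CUMS altered transcription in the fetal brain. Among the 9 immediate early genes tested, *Junb* was lower in the stress brains and none was higher, against 7.27% of all 17865 genes called lower, 6.49% called higher and 13.8% called in either direction. *Fosb* failed the filter on low counts. The model was edgeR's quasi-likelihood fit over all genes with sex as a covariate, and a gene was called at a Benjamini-Hochberg adjusted p under 0.05. At an unadjusted p under 0.05, 2 genes were lower (*Junb* and *Egr2*) and 0 higher in edgeR. DESeq2 called 0 of the 9 in either direction and had 1 lower and 0 higher at an unadjusted p under 0.05. The log2 fold change (stress over control) was below 0 for 7 of the 9, with a median of -0.12, beside a median of 0.0015 over all genes tested. In bulk tissue, fewer cells that express a gene and less RNA of it per cell cannot be told apart.

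**Figure D2:**
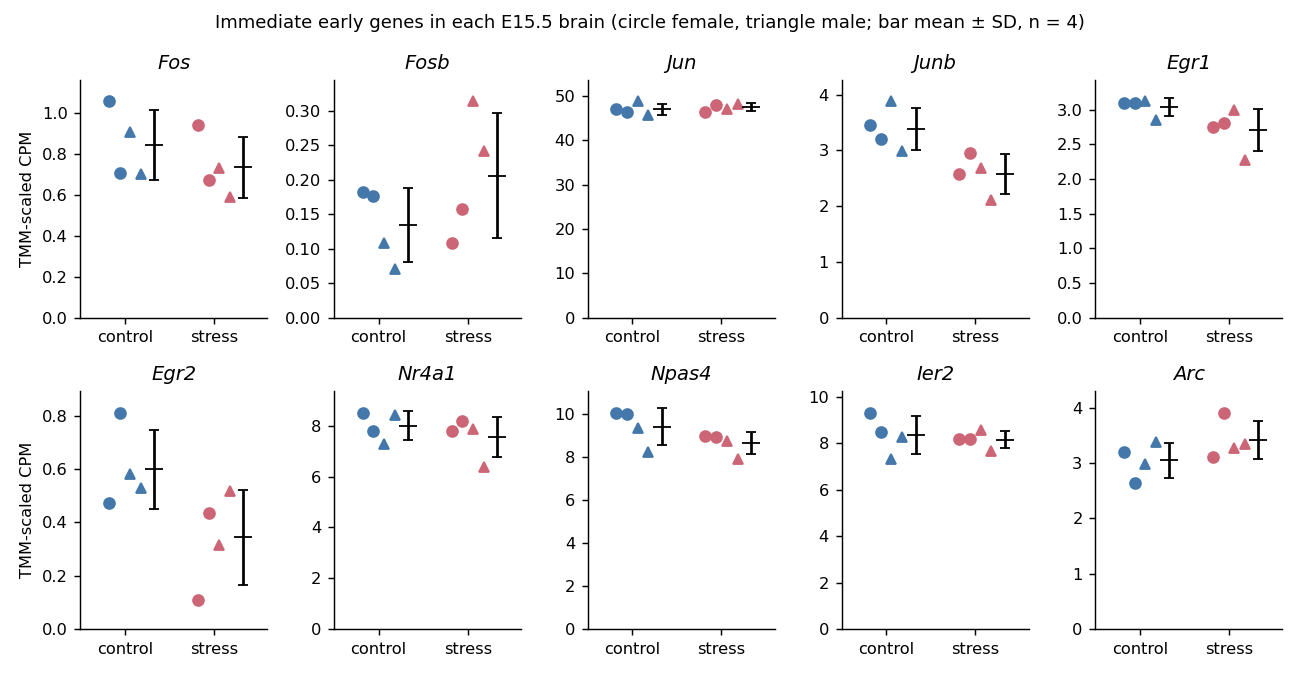
TMM-scaled CPM of each immediate early gene in every brain, with control in blue and stress in red, circles for females and triangles for males; black bars are the mean ± SD (n = 4), and each vertical axis starts at 0. The stress brains of Junb, between 2.11 and 2.96 CPM, all lie below the control brains, between 2.99 and 3.88 CPM, and the groups overlap in the other 9 panels.

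*Junb* had 95, 91, 107 and 85 counts in control F36, F37, M30 and M31 and 71, 75, 77 and 61 counts in stress F34, F35, M28 and M29. Scaled by TMM these were 3.46, 3.21, 3.88 and 2.99 CPM in the control brains and 2.57, 2.96, 2.68 and 2.11 CPM in the stress brains. Every stress brain was below every control brain, with control M31 and stress F35 nearly level. *Junb* was the only one of the 10 genes whose groups did not overlap, a pattern seen with stress lower in 8.22%, with stress higher in 8.2% and in either direction in 16.4% of all genes tested. The mean fell from 3.38 ± 0.384 to 2.58 ± 0.356 CPM (SD, n = 4 each), a log2 fold change of -0.39 (SE 0.13, 95% interval -0.66 to -0.13, adjusted p = 0.0415 from edgeR). The call was close to the threshold. In DESeq2 the log2 fold change was -0.39 as well, with an adjusted p of 0.146. With each brain left out in turn *Junb* was called in 2 of 8 edgeR fits, those without control M31 (adjusted p = 0.0357) and without stress F35 (adjusted p = 0.0311). It was not called without control F36 (adjusted p = 0.0741), F37 (adjusted p = 0.0526) or M30 (adjusted p = 0.194), nor without stress F34 (adjusted p = 0.0971), M28 (adjusted p = 0.0529) or M29 (adjusted p = 0.177), all from edgeR. Exons of *Prdx2* cover 7.52% of the exon bases of *Junb*, and strand was not used in counting.

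The other AP-1 genes of the list showed no difference beyond the spread among littermates. *Jun* had 1291, 1314, 1345 and 1302 counts in the control brains and 1279, 1214, 1353 and 1398 in the stress brains. Its mean was 47.0 ± 1.32 CPM for control and 47.4 ± 0.883 CPM for stress (SD over 4 brains), a log2 fold change of 0.01 (SE 0.04, adjusted p = 0.858 from edgeR), and the groups overlapped throughout. Its 95% interval, from -0.06 to 0.09, was the narrowest of the list. *Fos* had 29, 20, 25 and 20 counts in the control brains and 26, 17, 21 and 17 in the stress brains. The log2 fold change of *Fos* was -0.20 with a 95% interval from -0.67 to 0.28 (adjusted p = 0.647 from edgeR). A fall or a rise within these bounds is therefore compatible with the counts. *Fosb* had 5, 5, 3 and 2 counts in the control brains and 3, 4, 9 and 7 in the stress brains. Both stress males had more *Fosb* counts than any control brain, and both stress females fewer than the control females. Without the filter its log2 fold change was 0.60 (SE 0.52, adjusted p = 0.721 from edgeR).

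Of the zinc finger genes, *Egr2*, which is best known from hindbrain segmentation and Schwann cells, had the largest fold change of the list, but on few counts. It had 13, 23, 16 and 15 counts in the control brains and 3, 11, 9 and 15 in the stress brains. Stress F34 was far below the others, while stress M29 had as many counts as control M31. The mean was 0.598 ± 0.149 CPM for control and 0.344 ± 0.178 CPM for stress (SD over 4 brains), a log2 fold change of -0.80 (SE 0.34, adjusted p = 0.124 from edgeR). Without stress F34 it was -0.47. *Egr1* had 85, 88, 86 and 81 counts in the control brains and 76, 71, 86 and 66 in the stress brains. The control brains lay close together and stress M28 reached their level, and the log2 fold change was -0.17 (95% interval -0.42 to 0.08, adjusted p = 0.416 from edgeR).

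*Nr4a1* had 234, 221, 201 and 240 counts in the control brains and 215, 207, 226 and 185 in the stress brains. The groups overlapped apart from the low stress M29, and the log2 fold change was -0.09 (95% interval -0.26 to 0.09, adjusted p = 0.57 from edgeR). *Npas4* had 277, 284, 258 and 234 counts in the control brains and 248, 227, 252 and 229 in the stress brains. Of its control brains M31 alone fell among the stress brains, and the log2 fold change was -0.12 (95% interval -0.27 to 0.03, adjusted p = 0.317 from edgeR). *Ier2* had 256, 241, 202 and 235 counts in the control brains and 226, 207, 246 and 222 in the stress brains, with the stress values inside the control range. Its log2 fold change of -0.03 (adjusted p = 0.845 from edgeR) was 0.06 in the males alone. *Arc* had 88, 75, 82 and 96 counts in the control brains and 86, 99, 94 and 97 in the stress brains. Only *Arc* and *Jun* had a log2 fold change above 0 among the 9 genes, that of *Arc* being 0.16 (95% interval -0.09 to 0.41, adjusted p = 0.435 from edgeR).

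**Figure D3:**
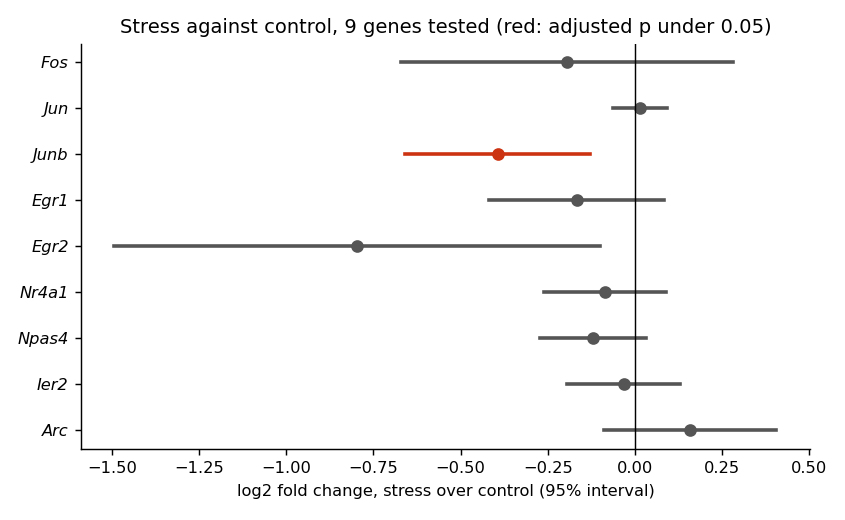
Log2 fold change, stress over control, of the 9 immediate early genes tested, with 95% intervals from the edgeR fit; red marks an adjusted p under 0.05. Junb at -0.39 is the gene called, and Egr2 at -0.80 has the widest interval, from -1.49 to -0.10 before any adjustment over genes.

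Neither the response nor the level of these genes was shown to depend on sex. The sex by stress interaction was called for 0 of the 9 genes, beside 0.0056% of all genes tested, and 0 of the 9 had an unadjusted p under 0.05 in edgeR or in DESeq2. The largest interaction term was that of *Egr2*, at 0.86 (SE 0.69, adjusted p = 0.891 from edgeR), with the fall being larger in females. Between males and females 0 of the 9 were called, beside 0.0896% of all genes tested, and 0 had an unadjusted p under 0.05 in edgeR. *Npas4* came closest, with a male minus female log2 difference of -0.15 (SE 0.07, adjusted p = 0.847 from edgeR). The counts of *Xist* and *Ddx3y* matched the labelled sex in 8 of 8 libraries.

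Littermates differed little beyond counting error in these genes. The coefficient of variation (CV) over 4 brains was below the CV that Poisson counting alone gives in 9 of the 18 cases, 9 genes in each group, and below the median CV of genes of like mean CPM in 11 of the 18. *Jun* varied by 2.80% in the control and 1.86% in the stress brains, where counting alone gives 2.76%. *Fos* varied by 20.3% and 20.6%, where counting gives 21.4%. The widest spread was that of *Egr2* in the stress brains, 51.7% against 27.6% from counting. An index of dispersion, the chi-square of littermate counts over its degrees of freedom, is near 1 when only counting error is present. Over both groups it was between 0.571 (*Egr1*) and 1.80 (*Egr2*), and *Nr4a1* at 1.76, *Npas4* at 1.53, *Ier2* at 1.35 and *Junb* at 1.29 were also above 1. Counting error sets a floor for scarce genes, so a difference among littermates smaller than it could not be seen.

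**Figure D4:**
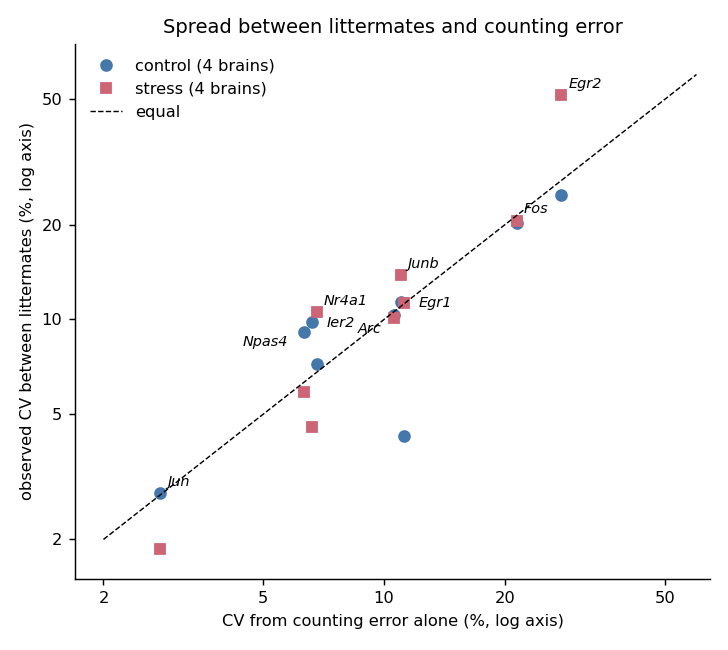
Observed coefficient of variation between the 4 littermates of a group (vertical) against that expected from counting error alone (horizontal), both in percent on log axes, for 9 genes with control as circles and stress as squares; each name stands by the higher point of its gene. Most points follow the dashed line of equality, with Egr2 in the stress brains (51.7%) furthest above it.

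Some brains were low or high in several of the genes. Stress M29 was the lowest stress brain for 6 of the 9 (*Fos*, *Junb*, *Egr1*, *Nr4a1*, *Npas4* and *Ier2*), and control M31 the lowest control brain for 5. Control F36 was the highest control brain for 4. The shares of all genes tested with these brains lowest or highest were not computed, so nothing particular to these genes is shown. Summed over the 10 genes without *Jun*, CPM was between 35.4 and 39.4 in the control brains and between 31.1 and 36.3 in the stress brains. Stress M29 also had the highest mitochondrial share, 2.31% against 2.1% to 2.19% in the other brains, and the part of this in its low values was not tested. After subtraction of the group means, Pearson's r between the log2 CPM of 2 of these genes over the 8 brains was between -0.81 and 0.80 in 36 pairs, with a median of 0.17. The values share library, litter and counting error. The genes whose deviations most resembled the mean deviation of the 9 were *Stac2*, *Camkmt*, *Psmf1*, *Mmp23*, *AA465934*, *Ppp1r13b*, *Ccnjl*, *Bicral*, *Kifc5b* and *Usp10*, with Pearson's r between 0.965 and 0.937 over 8 brains among 15242 candidates, and 4 of these were also among the 10 highest by Spearman's rho. Picking the highest of so many candidates over 8 brains yields high r for unrelated genes too. Whether these genes vary with the immediate early genes beyond chance was not tested, and rho uses the same 8 values.

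Genes around the immediate early genes in the same pathway were taken from 6 lists. Of 106 such genes tested, 5 were higher and 14 lower in the stress brains, with a median log2 fold change of -0.04, beside 6.49% higher, 7.27% lower and a median of 0.0015 over all genes tested. Among the family relatives 1 of 10 was lower and 1 higher. *Fosl2*, an AP-1 subunit of the Fos family, had 22.6, 23.9, 23.9 and 24.6 CPM in the control brains and 18.4, 18.5, 19.9 and 16.3 CPM in the stress brains. The groups were well apart, with a log2 fold change of -0.38 (SE 0.06, adjusted p = 5.48e-05 from edgeR). *Fosl2* was called in DESeq2 and in all 8 fits that left out a brain, with log2 fold changes between -0.43 and -0.32. *Ier5*, a relative of *Ier2*, had a log2 fold change of 0.11 (adjusted p = 0.0327 from edgeR), but DESeq2 did not call it (adjusted p = 0.0674), and of the 8 fits that left out a brain it was called only in those without stress F35 and without stress M29.

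Of 21 kinases upstream of the immediate early genes 5 were lower and 0 higher, with a median log2 fold change of -0.03, beside 7.27% of all genes tested called lower and 6.49% called higher. *Camk2b*, a subunit of the calcium/calmodulin-dependent kinase CaMKII, had 240.7, 245.3, 223 and 252 CPM in the control brains and 212, 204, 204 and 187 CPM in the stress brains, without overlap, and a log2 fold change of -0.25 (SE 0.03, adjusted p = 2.64e-05 from edgeR). *Camkk1* and *Camkk2*, which encode kinases that activate other CaM kinases, fell by 0.20 and 0.18 on the log2 scale, and *Map2k1*, the MEK1 kinase of the ERK pathway, fell by 0.22. Of 18 transcription factors and coactivators 2 were lower and 0 higher. *Mef2c*, a calcium-responsive factor of differentiating neurons, had a log2 fold change of -0.25 (SE 0.04, adjusted p = 0.000434 from edgeR). Its groups overlapped, with control M30 at 111 CPM and stress F35 at 113 CPM, and without control M31 the change was -0.18. *Mef2a* had a log2 fold change of -0.10, a call kept, of the 8 fits that left out a brain, only without control M30 or stress F35. *Srf*, *Elk1* and *Creb1*, whose products bind the elements described above, had log2 fold changes of -0.06, -0.04 and 0.04 and were not called.

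Of 27 other rapidly induced genes 3 were higher and 3 lower, beside 6.49% called higher and 7.27% called lower of all genes tested. *Bhlhe40*, a bHLH repressor, had a log2 fold change of -0.31 (adjusted p = 0.00974 from edgeR) and *Myc*, a growth regulator, one of -0.24 (adjusted p = 0.000855 from edgeR), both without overlap between the groups. The higher count was 1 without control F36, control M30 or stress M29. *Btg2*, an antiproliferative gene of neurogenic progenitors, rose from 42.2 ± 2.43 to 47.7 ± 2.81 CPM (SD, n = 4 each), a log2 fold change of 0.18 (adjusted p = 0.00692 from edgeR). Its groups overlapped, with control M30 at 45.2 CPM and stress F35 at 44.2 CPM. *Gadd45g*, a growth arrest gene, also had a log2 fold change of 0.18 with groups that overlapped. Its call was lost in DESeq2 (adjusted p = 0.0785) and kept, of the 8 fits that left out a brain, only without control F37 or stress F35. Of 16 feedback regulators, which switch the response off again, 1 was higher and 0 lower, beside the same shares of all genes tested. It was *Dusp4*, a phosphatase of MAP kinases, at a log2 fold change of 0.11 (adjusted p = 0.0142 from edgeR), called in 5 of the 8 fits that left out a brain and lost without control M30, stress F34 or stress M29.

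Of 14 activity-regulated neuronal effectors tested, 3 were lower and 0 higher, with a median log2 fold change of -0.10, beside 7.27% of all genes tested called lower and 6.49% called higher, and without stress F35 6 were lower. *Vgf*, a secreted neuropeptide precursor, had 22.0, 23.6, 19.4 and 23.4 CPM in the control brains and 16.6, 16.6, 16.7 and 15.9 CPM in the stress brains. The stress brains were nearly equal and all below the controls, with a log2 fold change of -0.43 (SE 0.06, adjusted p = 2.45e-05 from edgeR). *Inhba*, a subunit of activin, had a log2 fold change of -0.43 (SE 0.11, adjusted p = 0.00705 from edgeR) with groups that overlapped at control M30, and without control M31 it was -0.32 (adjusted p = 0.0515 from edgeR). *Arpp21*, a phosphoprotein of forebrain neurons, fell by 0.20 on the log2 scale. *Bdnf*, *Homer1* and *Nptx2*, further targets of neuronal activity, had log2 fold changes of -0.10, -0.04 and -0.13 and were not called. Of the 16 genes of these lists called and named by size of change, 11 were called in all 14 alternatives run on them, namely *Fosl2*, *Bhlhe40*, *Myc*, *Btg2*, *Mef2c*, *Camk2b*, *Map2k1*, *Camkk1*, *Camkk2*, *Vgf* and *Arpp21*.

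**Figure D5:**
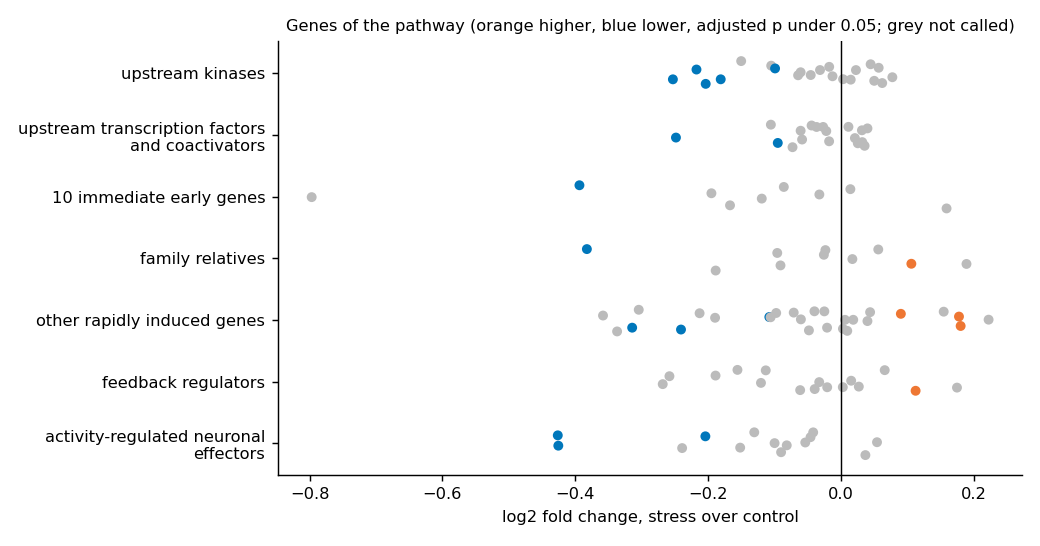
Log2 fold change, stress over control, of the 9 immediate early genes tested and of each gene of the 6 related lists; every point is a gene, blue lower and orange higher at an adjusted p under 0.05 in edgeR, grey not called. Heights within a row are arbitrary. The effectors Vgf and Inhba at -0.43, Junb at -0.39 and Fosl2 at -0.38 are the called genes furthest left, and Egr2 at -0.80 is not called.

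Markers of several cell types also differed between the groups, and their counts stand beside 6.49% called higher and 7.27% called lower of all genes tested. All 4 cycling cell markers and all 3 of intermediate progenitors were higher in the stress brains, with summed CPM between 430.5 and 497 against 377 and 410.1 for the first and between 185 and 209 against 160.2 and 174 for the second. Of 7 radial glial markers 4 were higher and 0 lower. Of 7 neuronal markers 4 were lower and 0 higher, with summed CPM between 6266 and 6543 in the stress and between 6356 and 6608 in the control brains, and the lower count was 1 without stress F34 and 2 without control F36, control M31, stress M28 or stress M29. Of 6 endothelial markers 4 were lower, with summed CPM between 130.2 and 139 against 146 and 163, and 2 were called in DESeq2 and without control F37, control M31 or stress M28. Of 6 microglial and 4 pericyte markers 0 were called, and of 6 erythroid markers 1 was lower, a call lost without control F37 or stress F34. Of 4 meningeal markers 2 were higher, with summed CPM between 14.3 and 42.0 against 11.3 and 20.5 and the highest value in stress M28, and of 3 choroid plexus markers 1 was higher, with summed CPM between 1.66 and 31.4 against 1.55 and 8.85 and the highest value in stress F34. Both counts were 0 in DESeq2. The meningeal count was 0 without stress M28, 1 without control M30 or M31 and 4 without control F36, and the choroid plexus count was 0 without control F37 or stress F34. Markers of muscle, skin and liver summed to at most 1.0 CPM. The part of these markers in the values of *Junb*, *Fosl2*, *Vgf* and the kinases was not tested.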

How the data were processed

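RNA-seq libraries of 8 brains were used, 1 per animal, grouped by the condition in the sample labels. The authors trimmed the reads, aligned them to mm10 with TopHat2 2.1.1 and assigned them to exons with featureCounts 1.6.3 and a GENCODE annotation, and the deposited values are raw counts per gene without normalization. No strand option is stated, so pairs in overlapping genes are uncertain. The authors' model also held batch, which is not named for these animals.

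Counts were filtered with filterByExpr (minimum count 10, by group), scaled by TMM and tested in edgeR 4.0.16 (R 4.3.3, limma 3.58.1) with sex and condition. The standard error is the log2 fold change over the square root of F. DESeq2 1.42.0, other scalings, no filter, no sex term, each sex alone and each brain left out were run as alternatives. The tests were checked on simulated data. Gene symbols were matched for 54723 of the 54752 identifiers. Library totals were between 25320109 and 29105710, and chi-square per gene between littermates was between 1.99 and 6.28, so no library was a repeat of another. Littermates of the same sex, which also have adjacent numbers, had between 1.99 and 3.03, and those of opposite sex between 4.09 and 6.28. The reason for this was not tested, and the 4 brains of a group may be less independent than their number.

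The immediate early genes and the lists were chosen with earlier results of these data known. Named genes were all 10 immediate early genes, up to 4 called genes of each related list by size of change, and the 10 genes most alike in deviation. The remaining genes of the Fos, Jun, Egr and Nr4a families, and *Srf*, *Elk1*, *Creb1*, *Bdnf*, *Homer1*, *Nptx2* and *Prdx2*, fall outside this rule and were added after their values were seen. Leaving out brains for the lists was also added after seeing the data.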

Additional observations from a re-analysis of the deposited data

Results flagged for a closer look

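*Egr1* in control M31, at 2.85 CPM, lay apart from the other 3 control brains, which were between 3.09 and 3.12 CPM. The gap was large for a group of 4 because these 3 were so close together. Of 18 groups of 4 brains examined in this way 1 stood out, and chance marks about 1 in 20.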

How the results depend on the processing

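Depth limits the scarce genes most, since *Fos*, *Fosb* and *Egr2* had under 30 counts per brain, and 4 littermates a group limit the rest. *Junb* was the gene called lower, and the number of immediate early genes called lower was 0 in DESeq2, in females alone and in males alone, and between 0 and 1 with each brain left out. In females *Junb* had a log2 fold change of -0.27 (adjusted p = 0.451) and in males -0.52 (adjusted p = 0.0855), from edgeR with 2 brains against 2. Other scalings, no filter and no sex term kept its call. The direction reversed for *Jun* without control M31 and for *Ier2* without control F36 and in males alone (0.0575), none of them called. With each brain left out the log2 fold change of *Jun* was between -0.004 and 0.0309 and that of *Ier2* between -0.085 and 0.0113. The immediate early genes without overlap between the groups numbered 6 of 10 in females alone and 3 of 10 in males alone, beside 47.2% and 51.2% of all genes tested, and 2 brains against 2 allow no exact p below 0.333. They numbered between 1 and 3 with each brain left out. Ordered by CPM, 6 of the 10 genes kept the place they had per length. Over all genes, 748 were higher in DESeq2, 295 higher and 407 lower in females alone, and 664 higher in males alone, and with each brain left out between 736 and 1057 were higher and between 854 and 1308 lower, the lowest numbers being without stress M29. Of the values for single genes, lists and all genes under these alternatives, 761 stayed the same, 34 lost their call, 47 counts moved by over 1.5 times and 3 reversed. A gene stayed the same when its direction and its call, or its lack of a call, held. A count stayed the same when it moved by no more than 1.5 times, so a small change in a count is included. Unless stated, the cause was not tested. No paired analysis was possible because the labels share no replicate numbers between the groups.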
